A study of Mus musculus with 16 samples.

Results

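Transcripts of 10 endothelial genes were followed through drug-associated inflammation of the mouse colon: 5 lineage genes that mark blood vessels (Pecam1, Cdh5, Kdr, Vwf and Plvap) and 5 genes for molecules with which vessel walls capture leukocytes (Sele, Selp, Icam1, Vcam1 and Madcam1). They were picked by gene symbol out of 30702 genes measured on the arrays, and each of the 10 had a single row. The question put to them was whether adhesion genes and lineage genes moved alike across genotype and diet.

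RNA of the mucosal layer of proximal colon from male C57BL/6J mice was hybridised to 16 Affymetrix arrays, 1 array per sample. There were 4 arrays of knockout (KO) lesions, 3 of KO control mucosa, 3 of wild-type (WT) lesions and 6 of WT control mucosa. All mice carried floxed Mcc, a gene named for its mutation in colorectal cancer. KO mice also carried Cre under the villin promoter, which is active in intestinal epithelium, and the WT mice were siblings without Cre. Lesions are inflamed areas from mice that ate feed with 320 ppm of sulindac, which is a non-steroidal anti-inflammatory drug. Feeding lasted 10 weeks and began at 6 weeks of age, and control mucosa is matching normal tissue of control-fed mice. No array held uninflamed tissue of sulindac-fed mice, so the drug and the choice of inflamed tissue cannot be told apart. No label states that arrays came from separate animals, so p-values measure the spread between these samples.

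Leukocytes leave the blood in steps, each run by its own molecules. Selectins on activated endothelium, E-selectin (Sele) and P-selectin (Selp), slow passing leukocytes by binding sugars on carriers such as PSGL-1 (Selplg). Immunoglobulin-family molecules then hold them through integrins: ICAM-1 (Icam1) binds the β2 integrins, VCAM-1 (Vcam1) binds the α4 integrins, and MAdCAM-1 (Madcam1), the address molecule of gut venules, binds α4β7. P-selectin is also stored in platelets, and ICAM-1 and VCAM-1 are not confined to endothelium, so in whole mucosa their transcripts need not come from vessels.

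Promoter windows in the RefSeq table of GRCm38.p6 were matched for 5 of the 10 genes, among them 4 of the 5 adhesion genes. These 4 are shown because adhesion genes are textbook targets of NF-kB, the transcription factor that tumour necrosis factor and interleukin-1 switch on. Each window runs from 250 bases before to 50 bases after a start that the table takes for the gene, on the gene's strand. For Selp, Icam1 and Madcam1 that start is the outer end of the gene in the RefSeq gene table, and for Sele and Kdr it lies inside the gene's span. Capitals mark matches to GGNNNTTCC on either strand, a loose form of the NF-kB site.
Sele (chr1:164047984-164048283, plus strand): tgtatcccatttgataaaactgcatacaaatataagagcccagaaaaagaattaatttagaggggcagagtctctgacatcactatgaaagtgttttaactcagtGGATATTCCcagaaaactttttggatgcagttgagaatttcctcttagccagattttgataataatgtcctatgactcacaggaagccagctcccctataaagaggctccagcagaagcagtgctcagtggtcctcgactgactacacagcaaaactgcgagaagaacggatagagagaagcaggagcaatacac
Selp (chr1:164115014-164115313, plus strand): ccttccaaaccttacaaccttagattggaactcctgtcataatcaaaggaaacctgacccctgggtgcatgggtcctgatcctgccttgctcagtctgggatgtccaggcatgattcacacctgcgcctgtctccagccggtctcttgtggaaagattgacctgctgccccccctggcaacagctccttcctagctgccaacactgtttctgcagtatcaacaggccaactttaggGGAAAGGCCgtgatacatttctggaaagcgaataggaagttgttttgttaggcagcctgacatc
Icam1 (chr9:21015690-21015989, plus strand): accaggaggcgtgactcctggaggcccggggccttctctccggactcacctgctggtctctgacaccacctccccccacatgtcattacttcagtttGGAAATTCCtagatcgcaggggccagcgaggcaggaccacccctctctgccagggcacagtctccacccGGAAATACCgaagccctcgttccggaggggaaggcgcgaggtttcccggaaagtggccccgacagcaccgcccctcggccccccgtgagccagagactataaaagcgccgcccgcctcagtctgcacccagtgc
Madcam1 (chr10:79664309-79664608, plus strand): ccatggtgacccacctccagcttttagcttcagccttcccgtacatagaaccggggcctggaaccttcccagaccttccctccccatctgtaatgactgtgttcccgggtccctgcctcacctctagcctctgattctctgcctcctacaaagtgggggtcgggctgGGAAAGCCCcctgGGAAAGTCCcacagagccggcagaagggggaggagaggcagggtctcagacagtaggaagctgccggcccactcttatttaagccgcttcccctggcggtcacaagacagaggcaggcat
All 4 windows held the motif, with 1 match in Sele, 1 in Selp, 2 in Icam1 and 2 in Madcam1. Of all 32851 windows in the table, 18.5% held at least 1 match. The window of Kdr (chr5:75978406-75978705, minus strand), the 1 lineage gene with a window, held none. A match describes letters only and is not a measured binding site.

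Some of the adhesion and vessel genes were higher in lesions of both genotypes, and others did not pass the test. In KO lesions against KO control mucosa, 6 of the 10 genes rose (Pecam1, Cdh5, Sele, Selp, Icam1 and Vcam1) and none fell; of all genes tested, 8.99% rose and 12.1% fell. In WT lesions against WT control mucosa, 4 of the 10 rose (Cdh5, Selp, Icam1 and Vcam1) and none fell; of all genes, 6.98% rose and 8.37% fell. Counted without a test, every lesion array lay above every control array of its genotype for 7 of the 10 genes in KO mice, against 12.7% of all genes, and for 5 of the 10 in WT mice, against 8.15% of all genes. The 4 genes called in WT mice rose in both genotypes, as did 5.26% of all genes. A gene counted as risen where its limma p, after Benjamini-Hochberg adjustment over 30702 genes, was below 0.05. The median log2 difference of the 5 adhesion genes was 0.70 in KO mice and 0.52 in WT mice, and that of the 5 lineage genes 0.24 in KO mice and 0.14 in WT mice. Over all genes the medians were 0.01 in KO mice and -0.06 in WT mice. All lesions carry sample numbers of a lower series and KO controls those of a higher series, so the KO response and the series cannot be told apart. With the series as a covariate, which WT controls of both series inform, Selp and Icam1 alone kept their KO calls, 2 of 6, while the share of all genes called in either direction was 8.19%, against 21.1% without the covariate. Fewer endothelial cells and less RNA per cell cannot be told apart in bulk mucosa, nor can more cells and more RNA per cell.

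**Figure D1:**
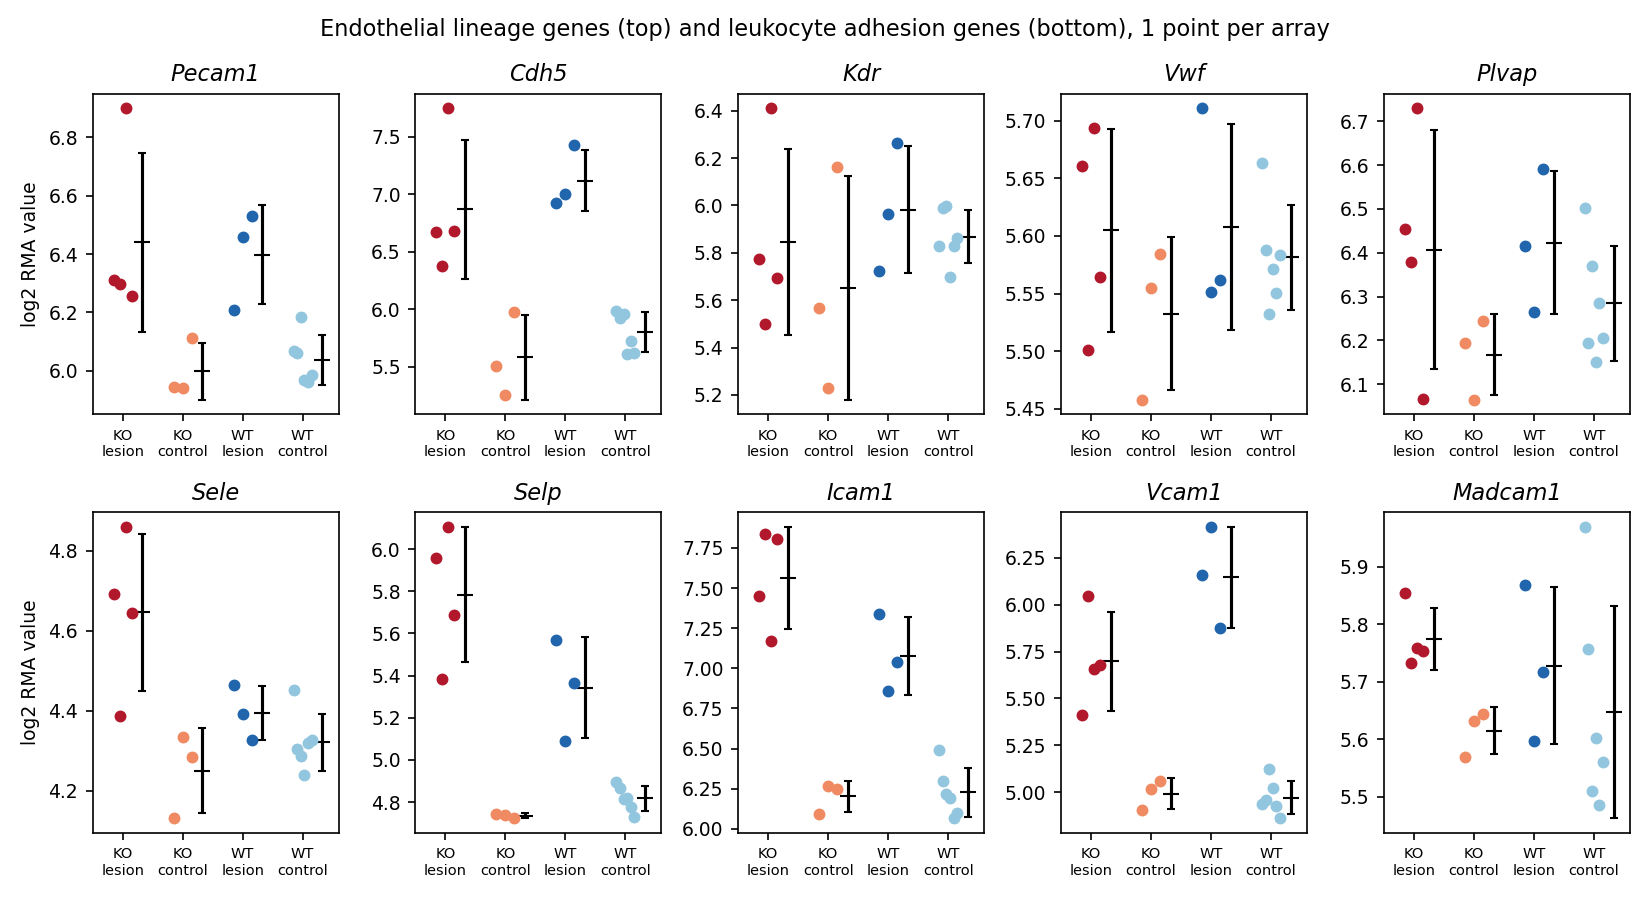
Log2 RMA value of each gene on each array (y axis), with lineage genes in the top row, adhesion genes in the bottom row, and the arrays grouped by KO lesion, KO control, WT lesion and WT control; black bars give the mean ± SD. Lesion arrays of both genotypes lie above their controls for Pecam1, Cdh5, Selp, Icam1 and Vcam1, while Kdr, Vwf and Plvap overlap.

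All 5 lineage genes lay above the array medians on every array, with a lowest value of 5.23. They came apart from one another in lesions. Cdh5 encodes VE-cadherin, which joins endothelial cells at their borders. Its log2 values were 6.67, 6.38, 7.75 and 6.68 in KO lesions, against 5.51, 5.26 and 5.98 in KO controls. They were 6.93, 7.002 and 7.42 in WT lesions, against a lowest of 5.61, a median of 5.82 and a highest of 5.99 in WT controls. Every lesion array lay above every control array of its genotype, and 1 KO lesion stood far above the other 3. Cdh5 was 2.44-fold higher in KO lesions (log2 difference 1.29 ± 0.26 SE, adjusted p = 0.00174, limma). In WT lesions it was 2.48-fold higher (log2 difference 1.31 ± 0.24 SE, adjusted p = 0.00117, limma).

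Pecam1 encodes CD31, an endothelial surface protein that platelets and many leukocytes also carry. It was 6.31, 6.30, 6.90 and 6.26 in KO lesions, against 5.95, 5.94 and 6.11 in KO controls. In WT lesions it was 6.21, 6.46 and 6.53, against 5.96, 6.02 and 6.19 as the lowest, median and highest in WT controls. No lesion array overlapped the controls of its genotype, although the lowest WT lesion lay only just above the highest WT control. Pecam1 rose 1.36-fold in KO lesions (log2 difference 0.44 ± 0.13 SE, adjusted p = 0.0244, limma). The WT difference of 0.36 ± 0.12 did not pass the threshold (adjusted p = 0.0583, limma). It passed in 8 of 32 alternatives, among them the fit of the WT arrays alone (adjusted p = 0.0146, limma). Fitted on the KO arrays alone, the KO difference did not pass (adjusted p = 0.116, limma). Such fits called 15.8% of all genes in WT mice and 15.3% in KO mice. The KO call rests on few arrays: without KO control 1 the adjusted p was 0.0927, and without KO control 2 it was 0.0811.

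Kdr, Vwf and Plvap did not pass the test in either genotype. Kdr encodes the main receptor for vascular endothelial growth factor. It was 5.78, 5.50, 6.41 and 5.70 in KO lesions, against 5.57, 5.23 and 6.16 in KO controls, and both groups ranged over nearly a whole log2 unit. Its KO difference of 0.19 had a 95% interval of -0.26 to 0.64, and its WT difference of 0.12 one of -0.30 to 0.53. Intervals of that width leave room for a change in either direction.

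Vwf encodes von Willebrand factor, the clotting protein that endothelium stores beside P-selectin. Its array values spanned only 5.46 to 5.71 in the whole study. The KO difference was 0.07, with a 95% interval of -0.07 to 0.21, and the WT difference was 0.03, with one of -0.10 to 0.16. Plvap encodes the diaphragm protein of fenestrated and leaky vessels. It was 6.45, 6.38, 6.73 and 6.07 in KO lesions, against 6.19, 6.06 and 6.24 in KO controls, with 1 KO lesion among the controls. Its KO difference of 0.24 had an interval of -0.04 to 0.51, and its WT difference of 0.14 one of -0.12 to 0.39. Without KO lesion 4, the KO difference of Plvap was 0.35 and passed (adjusted p = 0.0467, limma). With the replicate number as a block it was 0.32 and passed as well (adjusted p = 0.0273, limma).

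Of the selectins, Selp rose in lesions of both genotypes. Selp was 5.96, 5.38, 6.11 and 5.69 in KO lesions, against 4.74, 4.74 and 4.72 in KO controls. It was 5.57, 5.09 and 5.36 in WT lesions, against a lowest of 4.73, a median of 4.82 and a highest of 4.90 in WT controls. All lesions lay above all controls, and the controls sat close together below the array medians of 4.90 to 5.05. Selp rose 2.07-fold in KO lesions (log2 difference 1.05 ± 0.14 SE, adjusted p = 5.4e-05, limma) and 1.44-fold in WT lesions (0.52 ± 0.13 SE, adjusted p = 0.0098, limma). Signal this near background compresses differences, so these folds may be understated. The WT call was lost without WT lesion 1 (0.41, adjusted p = 0.0679), within the lower of the number series in the sample descriptions (0.48, adjusted p = 0.119), and with the replicate number as a block (0.47, adjusted p = 0.0506).

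Sele, whose selectin is made mainly after endothelial activation, was dim on every array. It was 4.69, 4.39, 4.86 and 4.64 in KO lesions, against 4.13, 4.33 and 4.28 in KO controls. In WT lesions it was 4.46, 4.39 and 4.33, against 4.24, 4.31 and 4.45 as the lowest, median and highest of WT controls. The KO groups did not overlap, the WT groups did, and all 16 values were below the median of their array. Sele rose by a log2 difference of 0.40 ± 0.09 SE in KO lesions (adjusted p = 0.00597, limma). In WT lesions the difference was 0.07, with a 95% interval of -0.11 to 0.26. Because no array shows Sele clearly above background, the size of its rise is uncertain. Fitted on the KO arrays alone, the adjusted p of Sele was 0.061 (limma), and an exact permutation test of those arrays, two-sided, gave p = 0.0571.

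Platelets, another source of P-selectin transcripts, were followed with 6 marker genes. Of these, Pf4 and Ppbp rose in KO lesions and Pf4 in WT lesions. The mean over the 6 genes ranged from 5.66 to 5.91 in KO lesions, against 5.52 to 5.63 in KO controls. It ranged from 5.59 to 5.63 in WT lesions, against 5.50 to 5.75 in WT controls. The part of platelets in the Selp difference was not tested.

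Icam1 and Vcam1 rose in both genotypes. Icam1 was 7.45, 7.84, 7.17 and 7.81 in KO lesions, against 6.09, 6.27 and 6.25 in KO controls. It was 7.34, 6.86 and 7.04 in WT lesions, against a lowest of 6.07, a median of 6.20 and a highest of 6.49 in WT controls. The lesions lay clear of the controls in both genotypes. Icam1 rose 2.57-fold in KO lesions (log2 difference 1.36 ± 0.15 SE, adjusted p = 1.4e-05, limma) and 1.80-fold in WT lesions (0.85 ± 0.14 SE, adjusted p = 6.18e-04, limma).

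Vcam1 was 5.41, 6.05, 5.66 and 5.68 in KO lesions, against 4.90, 5.02 and 5.06 in KO controls. It was 6.16, 6.41 and 5.87 in WT lesions, against a lowest of 4.86, a median of 4.95 and a highest of 5.12 in WT controls. Here too no lesion overlapped its controls, and the highest values of the study belonged to WT lesions. Vcam1 rose 1.63-fold in KO lesions (log2 difference 0.70 ± 0.13 SE, adjusted p = 0.00115, limma) and 2.26-fold in WT lesions (1.18 ± 0.12 SE, adjusted p = 1.1e-05, limma).

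Madcam1, the gut-homing address molecule, did not pass the test in either genotype. It was 5.85, 5.73, 5.76 and 5.75 in KO lesions, against 5.57, 5.63 and 5.64 in KO controls. In WT lesions it was 5.87, 5.60 and 5.72, against 5.48, 5.58 and 5.97 as the lowest, median and highest of WT controls. All KO lesions lay above all KO controls, by a small margin, as they did for 12.7% of all genes, and the WT groups overlapped. The KO difference was 0.16, with a 95% interval of -0.06 to 0.38 (adjusted p = 0.33, limma), and the WT difference was 0.08, with one of -0.12 to 0.28.

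**Figure D2:**
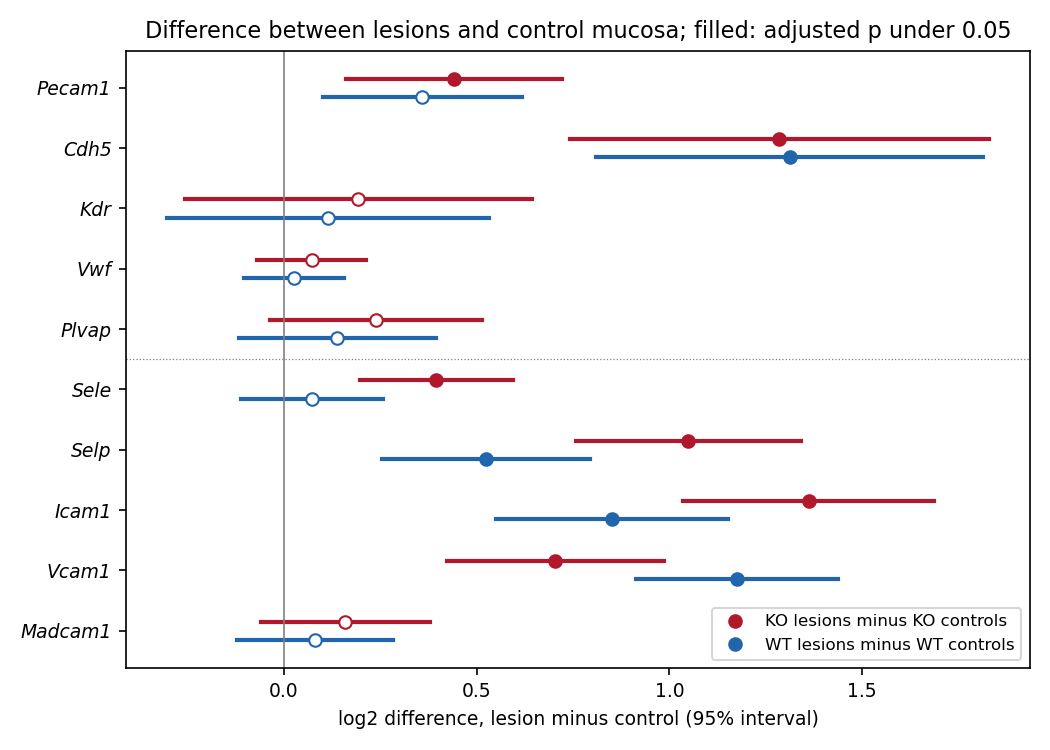
Log2 difference of lesions minus control mucosa (x axis) for each gene, with 95% intervals, in KO mice (red, above) and WT mice (blue, below); filled points had an adjusted p under 0.05. Cdh5, Selp, Icam1 and Vcam1 are filled in both genotypes, Pecam1 and Sele in KO mice alone, and Kdr, Vwf, Plvap and Madcam1 in neither.

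Between KO and WT lesions no adhesion or lineage gene passed after adjustment, and 0.306% of all genes did. At an unadjusted p under 0.05, 4 of the 10 genes differed between lesions, as did 13.4% of all genes. Icam1 was higher in KO lesions by a log2 difference of 0.49 ± 0.15 SE (adjusted p = 0.199, limma), Selp by 0.44 ± 0.14 (adjusted p = 0.194, limma) and Sele by 0.25 ± 0.09 (adjusted p = 0.265, limma). Vcam1 had the opposite sign, with a difference of -0.45 ± 0.13 (adjusted p = 0.174, limma). The KO and WT lesions overlapped for all 4 genes.

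The call for Icam1 between lesions depended on the arrays used: KO lesion 3, at 7.17, fell among the WT lesions. Without that array, Icam1 was higher in KO lesions by 0.62 (adjusted p = 0.0178, limma), and the share of all genes called between lesions was 5.53%. With array weights estimated from the spread it was higher by 0.64 (adjusted p = 0.0227, limma), and 2.33% of all genes were called. These shares compare with 0.306% over all arrays unweighted, so the gain was not particular to Icam1.

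The test of whether the lesion difference itself depends on genotype, the interaction, called none of the 10 genes, and 0.00326% of all genes. Its 4 unadjusted hits, against 11.1% of all genes, were the same 4 genes. The KO response minus the WT response was 0.52 ± 0.19 SE for Selp (adjusted p = 0.406, limma) and 0.51 ± 0.21 for Icam1 (adjusted p = 0.413, limma). It was 0.32 ± 0.13 for Sele (adjusted p = 0.411, limma) and -0.47 ± 0.18 for Vcam1 (adjusted p = 0.409, limma). For Cdh5 the interaction was -0.03, with a 95% interval of -0.77 to 0.71. Sele and Pecam1 therefore passed in KO mice alone, in the fit of all 16 arrays, without a shown difference between genotypes.

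In control mucosa no genotype difference passed for any of the 10 genes, adjusted or not, and 2.09% of all genes had an unadjusted p under 0.05 there. No gene on the arrays was called after adjustment (0% of those tested, limma), and 641 passed unadjusted. The differences of the 10 genes, KO minus WT, ran from -0.22 for Cdh5 to 0.02 for Vcam1. Mcc itself was 6.39, 6.42, 6.48 and 6.45 in KO lesions and 7.40, 7.09 and 7.18 in WT lesions, with no overlap (log2 difference -0.79, adjusted p = 0.0032, limma). In control mucosa it was 6.57, 6.71 and 6.43 in KO mice, against a range of 7.06 to 7.35 in WT mice. These groups did not overlap either, yet the log2 difference of -0.60 was not called after adjustment. The test in control mucosa thus missed the deleted gene itself.

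The array of KO lesion 3 differed from the other KO lesions in opposite ways for vessels and for leukocytes. It had the highest value among KO lesions for all 5 lineage genes and for both selectins, and the lowest for Icam1. Relative to the mean of KO controls, Cdh5 was higher there by 2.17 and Pecam1 by 0.90, against 0.80 to 1.09 and 0.26 to 0.31 in the other KO lesions. Icam1 was higher by 0.96 there and by 1.25 to 1.63 in the other 3. The mean of 5 pan-leukocyte genes was higher by 1.30 in KO lesion 3, against 1.85 to 2.08 in the others. The mean of 7 neutrophil genes was higher by 3.54 in KO lesion 3, against 4.54 to 5.49 in the others. Without this array, the KO response still held 6 called genes.

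Among KO controls, array 2 had the lowest Cdh5 and Kdr and the highest pan-leukocyte mean, 6.31 against 5.82 and 6.12. Leaving out this array together with KO lesion 3, a check added after the values were seen, left 5 called genes in the KO response. Pecam1 was the gene lost, at 0.26 (adjusted p = 0.098, limma).

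**Figure D3:**
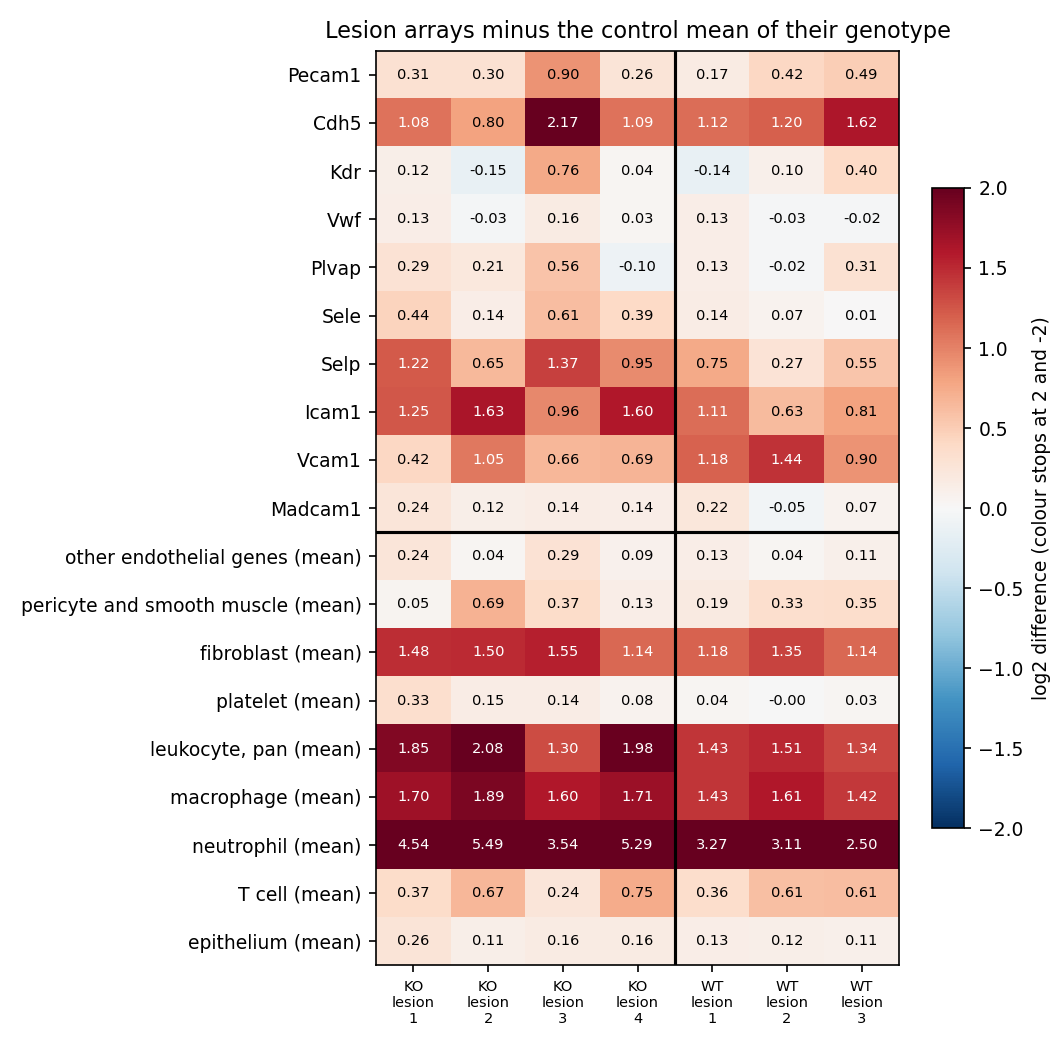
Log2 value of each lesion array (columns) minus the mean of the control arrays of its genotype, for the 10 genes (rows above the line) and for means over cell-type lists (rows below it); KO lesions are left of WT lesions. KO lesion 3 has the highest Cdh5, at 2.17, and the lowest Icam1 of the KO lesions, at 0.96.

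Whether adhesion genes rose beyond the vessel level was examined by setting each array's values against an endothelial mean on the same array. Taken as the mean of 5 adhesion genes minus the mean of 5 lineage genes, with the WT control mean at 0, the balance was 0.42, 0.58, -0.07 and 0.58 in KO lesions, against 0.07, 0.31 and -0.11 in KO controls. It was 0.40, 0.14 and -0.09 in WT lesions, against -0.10 to 0.09 in WT controls. The balance was therefore not above all controls on every lesion array: KO lesion 3 and WT lesion 3, the arrays with the highest Cdh5 of their genotype, lay among them.

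The lineage mean contains Cdh5, so its choice matters. Fitted on values minus that mean, Icam1 and Selp remained higher in KO lesions, by 0.91 (adjusted p = 0.00243, limma) and 0.60 (adjusted p = 0.00886, limma), and Vcam1 in WT lesions, by 0.78 (adjusted p = 0.00403, limma). Vcam1 in KO lesions (0.26, adjusted p = 0.263), Icam1 in WT lesions (0.46, adjusted p = 0.0552) and Selp in WT lesions (0.13, adjusted p = 0.462) were no longer called. After this scaling the median difference of all genes was -0.44 in KO mice and -0.45 in WT mice. Of all genes, 50.6% were called in KO mice and 64.2% in WT mice, in either direction.

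With the mean of 23 other endothelial genes in its place, the adhesion genes called before kept their calls. That mean itself was higher by only 0.04 to 0.29 on KO lesion arrays and 0.04 to 0.13 on WT lesion arrays. Subtracting it still lowered the KO difference of Vcam1 from 0.70 to 0.54 and that of Sele from 0.40 to 0.23. In this setting 30.1% of all genes were called in KO mice and 23.8% in WT mice, in either direction. Without the subtraction the shares were 21.1% in KO mice and 15.4% in WT mice. The medians of all genes were -0.16 in KO mice and -0.15 in WT mice. In KO lesions, Icam1 was higher by 1.20 (adjusted p = 1.63e-04), Selp by 0.88 (adjusted p = 3.71e-05), Vcam1 by 0.54 (adjusted p = 0.0215) and Sele by 0.23 (adjusted p = 0.0312, limma throughout). In WT lesions, Vcam1 was higher by 1.08 (adjusted p = 2.1e-04), Icam1 by 0.76 (adjusted p = 0.00443) and Selp by 0.43 (adjusted p = 0.00703, limma throughout). Cdh5 also stayed above this endothelial mean, by 1.12 in KO lesions (adjusted p = 0.00153, limma) and by 1.22 in WT lesions (adjusted p = 8.21e-04, limma). Pecam1 did not pass against it in either genotype.

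Most of those 23 genes did not pass the test. In KO lesions 5 rose and 1 fell, with a median log2 difference of 0.13. In WT lesions 3 rose and 1 fell, with a median of 0.03. Over all genes, 8.99% rose and 12.1% fell in KO lesions, and 6.98% rose and 8.37% fell in WT lesions. Counts for this and the other gene lists are to be read beside these shares. Eng, which encodes the TGF-β co-receptor endoglin, rose 1.83-fold in KO lesions (adjusted p = 6.04e-04, limma) and 1.89-fold in WT lesions (adjusted p = 3.02e-04, limma). Ecscr, an endothelial surface protein that regulates cell movement, rose 1.45-fold in KO lesions and 1.74-fold in WT lesions. Clec14a, a lectin-like protein of vessel walls, fell by 0.97 on the log2 scale in KO lesions (adjusted p = 6.71e-04, limma) and by 0.60 in WT lesions (adjusted p = 0.0161, limma), where it came near the array medians. Cd34 rose in both genotypes, and Flt1 and Erg passed in KO lesions; these 3 are named after their values were seen.

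**Figure D4:**
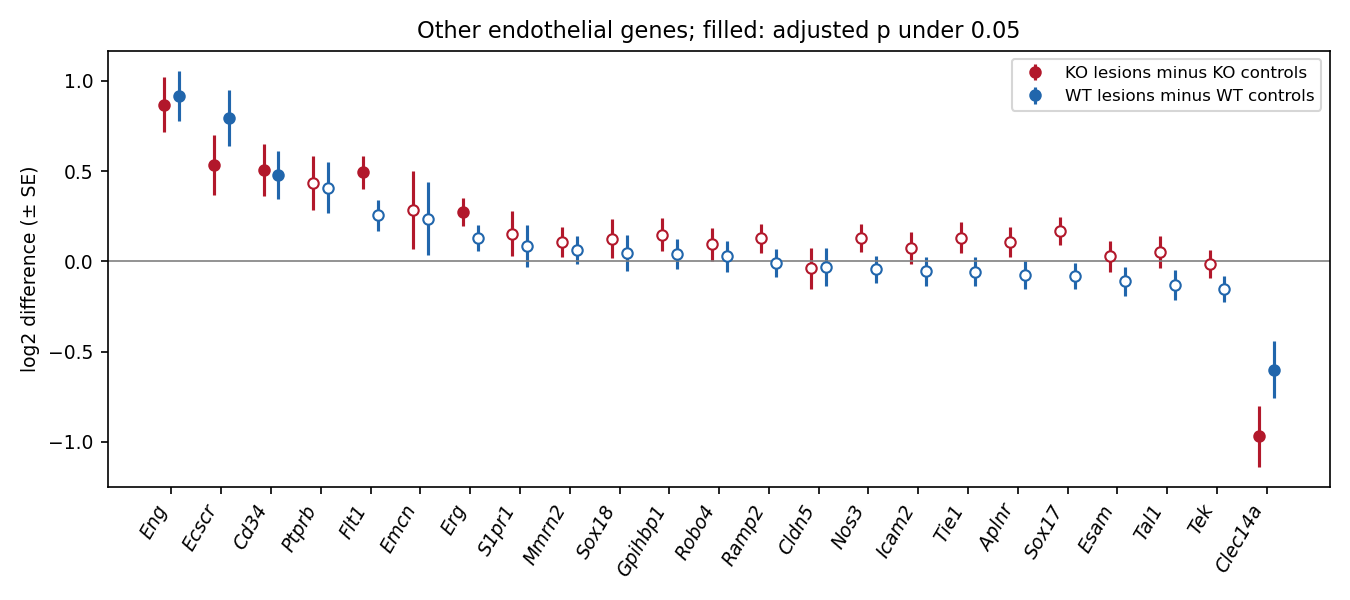
Log2 difference of lesions minus control mucosa (y axis, ± SE) for 23 other endothelial genes, in KO mice (red) and WT mice (blue), ordered by the WT difference; filled points had an adjusted p under 0.05. Eng, Ecscr and Cd34 rise and Clec14a falls in both genotypes, and most of the other genes lie near 0.

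Of 13 genes of vessel activation and sprouting, 5 rose and 1 fell in KO lesions, and 3 rose and 1 fell in WT lesions. A fall of 1 in 13 does not exceed the share of all genes that fell, 12.1% in KO lesions and 8.37% in WT lesions. Angpt2, a ligand that endothelium releases to loosen vessels, rose 1.24-fold in KO lesions (adjusted p = 0.0052, limma) and 1.52-fold in WT lesions (adjusted p = 1.8e-05, limma). Vegfa, the growth factor read by Kdr, rose by 1.25 on the log2 scale in KO lesions and by 0.58 in WT lesions, and is made by many cell types. Procr, the endothelial receptor for protein C, rose 1.73-fold in KO lesions and 1.24-fold in WT lesions. Nrp2, a co-receptor for vascular growth factors, was the gene that fell in each, and is named after its values were seen. Of 6 lymphatic genes, Pdpn alone rose, 5.11-fold in KO lesions and 3.64-fold in WT lesions, and fibroblasts express it too.

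Counter-receptors that leukocytes carry for these vessel molecules were higher in lesions too. Of 12 genes for ligands and integrins, the same 8 rose in lesions of both genotypes and none fell, with medians of 1.07 in KO mice and 0.79 in WT mice. Selplg, the PSGL-1 carrier that selectins bind, was 7.76, 7.88, 7.27 and 7.78 in KO lesions, against 6.22 on each of the 3 KO controls. The WT lesions had 7.08, 6.97 and 6.96, against 6.15 to 6.35 in WT controls. It was also higher in KO than in WT lesions, by 0.66 (adjusted p = 0.028, limma), with every KO lesion above every WT lesion. Calls between lesions depended on the fit: 94 genes were called with all groups fitted and 1 with only the 2 lesion groups.

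Itgb2, the β2 chain of the ICAM-1 receptors, rose by 2.32 on the log2 scale in KO lesions (adjusted p = 3.02e-07, limma) and by 1.56 in WT lesions (adjusted p = 1.07e-05, limma). Itgax, the α chain of a β2 integrin of myeloid cells, rose 2.23-fold in KO lesions and 1.88-fold in WT lesions. The chains of the α4β7 receptor of MAdCAM-1, named after their values were seen, came apart. Itga4, whose product also pairs with the β1 chain to bind VCAM-1, rose by 0.98 in KO lesions and 0.86 in WT lesions. Itgb7 differed by 0.23 in KO lesions (adjusted p = 0.0552, limma) and by 0.07 in WT lesions (adjusted p = 0.604, limma).

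Genes that build the sugars of selectin ligands split. Of 10, 3 rose and 4 fell in KO lesions, and 1 rose and 3 fell in WT lesions. B4galt1, a galactosyltransferase, rose 2.03-fold in KO lesions and 1.68-fold in WT lesions. Fut4, a fucosyltransferase, fell by 1.63 on the log2 scale in KO lesions (adjusted p = 1.44e-06, limma) and by 0.94 in WT lesions (adjusted p = 1.84e-04, limma). Epithelium makes such enzymes as well as leukocytes.

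Among 8 other genes of endothelial contacts and transmigration, 5 rose and 1 fell in KO lesions, and 4 rose and none fell in WT lesions. Cd47, a widely expressed ligand of SIRPα, rose 2.73-fold in KO lesions and 2.63-fold in WT lesions. Jam2, a junction molecule of vessel walls, rose 2.26-fold in KO lesions and 1.61-fold in WT lesions. Alcam, an adhesion molecule of the immunoglobulin family, rose 1.73-fold in KO lesions and 1.27-fold in WT lesions.

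Some genes of the NF-kB pathway were higher in lesions. Of 17 genes for its inputs and early targets, 9 rose in KO lesions and 7 in WT lesions, and none fell. Il1b, a cytokine that activates endothelium, had log2 values of 12.29, 12.71, 11.25 and 12.59 in KO lesions, against 5.18, 5.14 and 5.09 in KO controls. The WT lesions had 11.43, 11.17 and 10.86, against 4.82 to 5.62 in WT controls. Lesions and controls were more than 5 log2 units apart in both genotypes. Il1a, its sister cytokine, rose by 6.94 in KO lesions and 5.96 in WT lesions.

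Cells other than endothelium moved with these results, and their part in them was not tested. The pan-leukocyte mean ranged from 7.39 to 8.16 in KO lesions, against 5.82 to 6.31 in KO controls, and 5 of its 5 genes rose. It ranged from 7.15 to 7.33 in WT lesions, against 5.74 to 5.90 in WT controls, and 4 of 5 rose. Cd53, a leukocyte tetraspanin, rose by 3.39 in KO lesions and 3.04 in WT lesions, and Laptm5, a lysosomal protein of blood cells, by 1.52 in KO lesions and 1.12 in WT lesions.

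All 7 neutrophil genes rose in both genotypes, and 4 of them were also higher in KO than in WT lesions. Between lesions 0.306% of all genes were called in either direction. That share was 0.00651% with the replicate number as a block and 0.00326%, or 1 gene, with only the 2 lesion groups fitted. The 4 calls therefore depended on the fit. The neutrophil mean ranged from 7.83 to 9.78 in KO lesions, against 4.24 to 4.32 in KO controls, and from 6.88 to 7.66 in WT lesions, against 4.26 to 4.44 in WT controls. S100a8, a calcium-binding alarm protein of neutrophils, rose by 7.47 in KO lesions and 5.89 in WT lesions, and S100a9, its partner, by 6.74 in KO lesions and 4.86 in WT lesions. In control mucosa of each genotype, 5 of the 7 genes averaged below the lowest array median, so these differences may be understated.

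Of 8 macrophage genes, 8 rose in KO lesions and 7 in WT lesions. The macrophage mean ranged from 7.68 to 7.97 in KO lesions, against 6.02 to 6.15 in KO controls, and from 7.54 to 7.72 in WT lesions, against 5.95 to 6.33 in WT controls. Ly6c2, a marker of inflammatory monocytes, rose by 4.42 in KO lesions and 4.12 in WT lesions, and Csf1r, the receptor for macrophage growth factor, by 1.85 in KO lesions and 1.56 in WT lesions. Of 5 T cell genes, 4 rose in KO lesions and 3 in WT lesions, with Cd3g, a chain of the T cell receptor complex, higher by 0.52 in KO lesions and 0.76 in WT lesions.

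Stromal cells, which can carry ICAM-1 and VCAM-1, also moved. Of 7 fibroblast genes, 6 rose in each genotype, and their mean ranged from 7.10 to 7.51 in KO lesions, against 5.79 to 6.21 in KO controls. In WT lesions it ranged from 7.19 to 7.39, against 5.96 to 6.18 in WT controls. Dcn, a matrix proteoglycan, rose by 4.11 in KO lesions and 3.76 in WT lesions. Of 10 pericyte and smooth muscle genes, 3 rose in each genotype: Pdgfrb, Rgs5 and Kcnj8, all pericyte markers. Cspg4, Notch3 and Abcc9, other pericyte markers of the list, were called in neither genotype. Pdgfrb, the growth factor receptor of pericytes, rose 1.68-fold in KO lesions and 1.76-fold in WT lesions.

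Of 8 epithelial genes, 5 rose and 1 fell in KO lesions, and 1 rose and 1 fell in WT lesions. Krt20, a keratin of surface epithelium, rose 1.34-fold in KO lesions and 1.22-fold in WT lesions, and Cdx2, an intestinal transcription factor, fell by 0.64 on the log2 scale in KO lesions and by 0.36 in WT lesions. The epithelial mean ranged from 11.73 to 11.88 in KO lesions, against 11.52 to 11.67 in KO controls. It ranged from 11.72 to 11.74 in WT lesions, against 11.55 to 11.71 in WT controls. B cell and follicular dendritic cell genes, which mark lymphoid follicles, bear on Madcam1 and Vcam1 because both are expressed there. Of 7, none rose, and Cxcl13 and Cr2 fell in KO lesions. Their mean ranged from 5.002 to 5.26 in KO lesions, against 5.04 to 5.93 in KO controls, and from 4.99 to 5.20 in WT lesions, against 5.02 to 5.27 in WT controls.

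The 4 adhesion genes that rose had different nearest neighbours. Genes with provisional names, such as those with Gm, Rik or LOC, were left out of the search. Likeness was the root mean square distance between profiles over 16 arrays, each gene set to 0 at its own WT control mean. Icam1 lay nearest to Selplg (0.131), F10 (0.132) and Fmnl1 (0.133). Vcam1 lay nearest to C1qb (0.178), a complement gene of macrophages, Adgre1 (0.184), a macrophage surface receptor, and B2m (0.184), the light chain of class I molecules. Selp lay nearest to Krt7 (0.139), Piezo1 (0.16) and Plcg1 (0.16). Sele, which was dim on every array, lay nearest to Mir6387 (0.0784), Serpinf1 (0.0862) and Dpep2 (0.0988).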

How the data were processed

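The deposited log2 values come from RMA (Affymetrix Power Tools 1.16.1), per the submitters' processing notes. RMA corrects background, normalises quantiles and summarises probes. The genome build is not given in the sources used here. Of 72688 rows, 31258 had 1 gene symbol, 1492 several and 39938 none listed, and symbols were updated through RefSeq GRCm38.p6. The highest-mean row stood for each of 441 genes with several rows, which left 30702 genes. The number of arrays limits the precision.

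A single limma fit (version 3.58.1, R 4.3.3) of 4 group means on 16 arrays gave all tests, two-sided, with Benjamini-Hochberg adjustment over all genes. The script was tested on simulated data. Groups came from the genotype and diet labels, and no arrays of a group were duplicates (r from 0.983 to 0.996). The descriptions carry sample numbers of a lower or a higher series, and no label explains them. WT controls hold both, KO controls only the higher and all lesions the lower, so the KO response and the series cannot be told apart. Same-numbered arrays deviated together in lesions of both genotypes (r from 0.30 to 0.54) and in opposite ways in control mucosa (r from -0.34 to -0.24). No label pairs them, and whether they are pairs was not tested. Between lesions, no adhesion or lineage gene was called with or without the replicate block. The share of all genes called between lesions was 0.00651% with the block, against 0.306% without it.

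The members and lists were chosen with earlier results of these data known. Named are the 10 members and Mcc. From each list come up to 2 called genes of lowest p in each response. For each adhesion gene called, the 3 nearest profiles among genes without provisional names are named. Alternatives covered filters, covariates, scalings, array weights and left-out arrays.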

Additional observations from a re-analysis of the deposited data

Results flagged for a closer look

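The Pecam1 value of KO lesion 3, at 6.90 on the log2 scale, stood apart from the other 3 KO lesions, at 6.26 to 6.31. Its gap to the nearest of them was 0.915 of the group's whole range, above Dixon's 95% critical value for 4 samples. It was the 1 value to do so in 20 groups of 4 to 10 samples tested, and chance gives about 1 in 20. The same array also had the highest Cdh5, Kdr, Vwf, Plvap, Sele and Selp of the KO lesions, and the lowest Icam1.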

How the results depend on the processing

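Of 313 alternatives of the 10 called differences, 294 kept the sign and the call. Many of these left out an array of a group outside the comparison. Such a fit could change the spread and the adjustment but not the difference. The count of called genes in the WT response was 4, and leaving out 1 array at a time gave 4 to 5. It was 2 with the mean of the 5 lineage genes subtracted, where 64.2% of all genes were called, against 15.4% without. The count in the KO response was 6, and 5 to 7 with 1 array left out. It was 4 with only the KO arrays fitted, without Pecam1 and Sele, where 15.3% of all genes were called. It was 2 with the number series as a covariate, which only WT controls can inform, and 3 with the lineage mean subtracted. The share of all genes called there was 8.19% with the covariate and 50.6% with the mean subtracted, against 21.1% without either. With that mean subtracted, the KO differences of Pecam1 and Sele turned sign, to -0.0049 and -0.051, and neither was called, while the median of all genes was -0.44. The count between KO and WT lesions was 0, and 0 to 1 with 1 array left out. It was 1 with array weights, 1 without KO lesion 3, and 1 without KO lesion 3 and KO control 2 together, each time Icam1. All genes called were then 2.33%, 5.53% and 5.12% in the same order, against 0.306%. In control mucosa and in the interaction it stayed at 0 in every alternative run. With the replicate block, 3 genes were called in the WT response, without Selp, and 7 in the KO response, with Plvap added. The shares of all genes called were then 11.5% in the WT response and 18.9% in the KO response. Same-numbered arrays did not all deviate together in either response (r from 0.10 to 0.35 in WT mice and from -0.30 to -0.15 in KO mice). With the series covariate, Cdh5 (0.98, adjusted p = 0.142, limma), Vcam1 (0.64, adjusted p = 0.0671, limma), Sele and Pecam1 lost their KO calls; the cause was not tested. Exact permutation tests of the KO arrays, two-sided and unadjusted, lost Sele (p = 0.0571) and passed Madcam1 (p = 0.0286, the smallest that 35 splits allow). Sele has no value under the filter on dim genes. Signals of Sele, and of Selp in controls, lie under the array medians, which limits how well their size of change is known.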
